A study of Mus musculus with 12 samples.

Results

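The Id genes of the mouse, Id1, Id2, Id3 and Id4, encode small helix-loop-helix proteins that lack a DNA-binding region. The 4 genes were found by their symbols among the 35275 genes of an RNA-seq table of sorted hematopoietic stem cells, and all 4 have a value in every one of its 12 libraries. The C57BL/6 mice fell into 4 groups of 3 libraries each: Thpo-/- (KO) mice given Romiplostim, an agonist in place of thrombopoietin, Thpo-/- mice left untreated, Thpo+/+ (WT) mice given Romiplostim, and Thpo+/+ mice left untreated. Thpo encodes thrombopoietin, the cytokine that acts on megakaryocytes and on stem cells, and the comparisons ask what its loss and its replacement by an agonist do to stem cell RNA. The Romiplostim dose was 100 µg/kg per day, by intravenous injection over 10 days. The protocol gives PBS to the controls, while their label reads untreated, and the surface markers of the sort are not given in the sources used here.

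Id proteins bind the E proteins Tcf3, Tcf4 and Tcf12, which are transcription factors of the basic helix-loop-helix class, and hold them in pairs that cannot bind DNA. E proteins drive B and T cell development, and Id2 is required for natural killer cells and other innate lymphoid cells. Id genes are known as targets of bone morphogenetic proteins (BMPs), which act through Smad factors, and Id1 has been described in stem cells as a gene induced by cytokines. Id1 (ENSMUSG00000042745) lies on chromosome 2 at 152736251 to 152737410 of mm10, plus strand. Id2 (ENSMUSG00000020644) lies on chromosome 12 at 25093799 to 25097140, minus strand, and Id3 (ENSMUSG00000007872) on chromosome 4 at 136143497 to 136145755, plus strand. Id4 (ENSMUSG00000021379) lies on chromosome 13 at 48261228 to 48266026, plus strand, where it overlaps the antisense gene A330033J07Rik and the noncoding gene Gm49291. The library kit does not mark the strand, so reads from Id4 and from these genes cannot be told apart.

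The sequences below show how alike the 4 genes are where they are most alike, which bears on whether their reads can be assigned. Each is a stretch of 135 coding bases from the first coding exon, in the part that encodes the helix-loop-helix region, with capitals at the 76 bases that are identical in all 4 genes (mm10, transcripts of GENCODE M21).
Id1, chr2:152736512-152736646, plus strand: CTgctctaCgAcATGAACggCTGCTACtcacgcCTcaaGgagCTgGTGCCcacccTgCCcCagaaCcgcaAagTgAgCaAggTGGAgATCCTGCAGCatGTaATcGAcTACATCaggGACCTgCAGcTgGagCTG
Id2, chr12:25095774-25095908, minus strand: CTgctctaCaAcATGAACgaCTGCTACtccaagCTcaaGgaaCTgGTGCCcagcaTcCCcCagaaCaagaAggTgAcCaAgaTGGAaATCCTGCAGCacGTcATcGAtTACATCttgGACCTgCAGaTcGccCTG
Id3, chr4:136143996-136144130, plus strand: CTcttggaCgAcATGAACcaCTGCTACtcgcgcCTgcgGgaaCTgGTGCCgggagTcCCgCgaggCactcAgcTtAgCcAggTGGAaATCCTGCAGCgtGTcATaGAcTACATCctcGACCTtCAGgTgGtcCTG
Id4, chr13:48261687-48261821, plus strand: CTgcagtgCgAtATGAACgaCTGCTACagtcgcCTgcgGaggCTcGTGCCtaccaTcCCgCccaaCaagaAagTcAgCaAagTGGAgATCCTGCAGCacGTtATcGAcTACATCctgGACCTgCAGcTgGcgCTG
In this window Id1 and Id2 were the most alike pair, with 80.7% identical bases, and the other pairs had 69.6% to 77.8%. Over the whole transcripts the longest run that any pair of these genes shares exactly was 11 to 19 bases, against reads of 150 bases.

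The libraries held an estimated 27.7 to 35.5 M fragments, recovered from the steps between low values, and 11262 to 12374 genes at 1 FPKM or more. FPKM, fragments per kilobase of gene scaled to library depth, is a level per length, so that the Id genes can be set against each other. Thpo was listed at 0 FPKM in 10 of 12 libraries and at 0.0426 in 1 treated WT and 0.0208 in 1 untreated WT library, so it does not check the genotype labels. The submitters put the 3 libraries of a group on 1 sequencing run, and run and group cannot be told apart. Whether the replicates are separate animals is not stated, so that p-values measure only the spread between these libraries. The untreated KO libraries stood apart in their markers. The mean log2(FPKM + 1) of 91 markers of other blood, stromal and endothelial cells was 3.17, 3.75 and 3.53 in treated KO libraries, 5.12, 5.27 and 5.69 in untreated KO, 2.34, 2.50 and 2.46 in treated WT and 2.60, 2.77 and 2.76 in untreated WT. The summed FPKM of 12 stem cell markers, all detected in every library, was 1012 to 1675 in treated KO, 505 to 714 in untreated KO, 1468 to 1865 in treated WT and 1552 to 2138 in untreated WT. In such bulk samples, fewer cells of a type and less RNA per cell cannot be told apart.

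Id1 rose under Romiplostim in both genotypes, while without treatment its level in KO was not shown to differ from that in WT. In WT mice Id1 had 22.0, 31.2 and 32.7 FPKM in treated libraries and 6.92, 4.21 and 5.02 FPKM in untreated libraries. All 3 treated libraries lay above all 3 untreated ones, in a comparison where the groups of 26.8% of tested genes did not overlap. The mean was 5.32 times as high under Romiplostim, and the log2 fold change of FPKM + 1 was 2.22 ± 0.27 (SE; adjusted p = 0.0021, limma, Benjamini-Hochberg over 12823 genes). An adjusted p under 0.05 was the criterion throughout. In this comparison 1.84% of all tested genes passed it, 0.866% upward, and Id1 was the member among 3 tested that did so. By the size of its rise it was number 28 of 12823. The replicate numbers of the labels were taken to pair the WT libraries after the data were seen. With replicate as a block in a fit of the WT libraries alone, 1396 of 11938 genes passed, or 11.7%, where 236 had passed. The Id1 value was then 2.22 ± 0.21 (adjusted p = 0.00313). The pairing was chosen from the same libraries, so part of the smaller spread in this fit is built in. Y-linked FPKM was near 0 in treated WT replicate 1 (0.09) and in untreated WT replicate 2 (0.55), which do not share a number. In KO mice Id1 had 14.5, 26.3 and 19.6 FPKM in treated libraries and 2.94, 4.16 and 6.5 FPKM in untreated libraries. These groups did not overlap either, as those of 40.3% of tested genes did not. The treated mean was 4.45 times as high, with a log2 fold change of 1.95 ± 0.27 (adjusted p = 0.000492), in a comparison where 29.6% of genes passed, 10.7% upward. Of the calls in this comparison 36.3% were upward as the values were deposited, 47.4% after median-of-ratios scaling and 58.2% after quantile normalization, which moved the median of all genes to 0.07, against −0.09, while the Id1 call held under each.

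The size of this Id1 response was not shown to differ between the genotypes. The difference of the log2 fold changes, KO minus WT, was −0.27 ± 0.39 (adjusted p = 0.668), with a 95% confidence interval of −1.11 to 0.57, which leaves room for a response from smaller to larger in KO. Treated KO libraries averaged 20.1 ± 5.92 FPKM and treated WT libraries 28.6 ± 5.76 FPKM (SD, n = 3 each), and the groups overlapped (log2 difference −0.51 ± 0.27, adjusted p = 0.324). Untreated KO libraries averaged 4.53 ± 1.81 FPKM and untreated WT libraries 5.38 ± 1.39 FPKM, again overlapping (−0.24 ± 0.27, adjusted p = 0.507, interval −0.83 to 0.36). Treated KO libraries all lay above the untreated WT ones (log2 difference 1.71 ± 0.27, adjusted p = 0.00421), where 10.4% of genes passed, 2.93% upward, and 27% did not overlap. From the lowest to the highest mean, Id1 thus ran untreated KO, untreated WT, treated KO and treated WT, and among neighbours the step between untreated WT and treated KO passed the test.

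**Figure D1:**
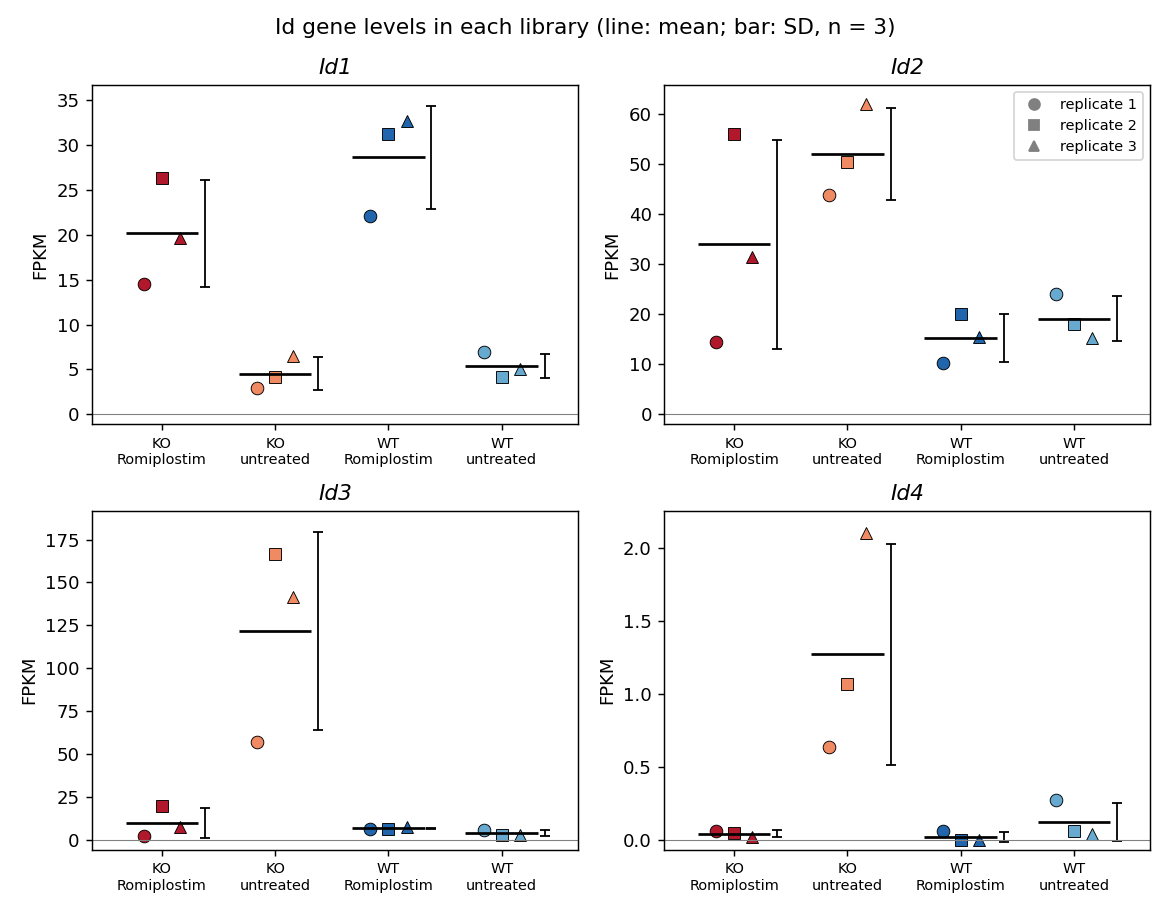
Level of Id1, Id2, Id3 and Id4 in each library, in FPKM on a linear axis, by group; symbols mark the replicate number, lines the mean and bars the SD of 3 libraries. Id1 is high in both treated groups, whereas Id3 and Id4 are high in untreated KO, where Id3 reaches 167 FPKM.

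Id3 had the widest range of the 4 genes in FPKM, and its high level was found in untreated KO libraries. There it had 57.0, 167 and 142 FPKM, against 5.99, 2.82 and 2.92 FPKM in untreated WT libraries. The lowest untreated KO library was thus well above the highest WT one, in a comparison where the groups of 56.3% of tested genes did not overlap. The ratio of the means was 31.1, and the log2 fold change was 4.56 ± 0.55 (adjusted p = 7.87e-05). In this comparison 45.1% of tested genes passed, 22.1% upward, and 2 of the 3 members tested did, Id2 and Id3, both upward. A pass was therefore common here, and Id3 was number 60 of 12823 by the size of its rise.

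Under Romiplostim, Id3 fell in KO mice to a mean of 10.0 FPKM, against 122 FPKM in untreated KO mice. Treated KO libraries had 2.55, 19.9 and 7.63 FPKM, against the 57.0, 167 and 142 FPKM of untreated KO libraries. The groups did not overlap, as those of 40.3% of tested genes did not, although the treated libraries varied among themselves by a factor of 7.81. The log2 fold change was −3.69 ± 0.55 (adjusted p = 0.000729), in a comparison where 18.9% of genes passed downward. In WT mice Id3 had 6.73, 6.58 and 7.37 FPKM in treated libraries and 5.99, 2.82 and 2.92 FPKM in untreated libraries. Here the treated libraries lay above the untreated ones, as the groups of 26.8% of all tested genes also did not overlap, but the difference did not pass (0.74 ± 0.55, adjusted p = 0.648, or 0.059 with the replicate block in WT alone). The Romiplostim effect on Id3 differed between genotypes, by −4.44 ± 0.78 on the log2 scale for KO minus WT (adjusted p = 0.00505, 95% interval −6.13 to −2.74), where 15.6% of genes passed, 10% in the negative direction. Both KO comparisons and this difference rest on the same untreated KO libraries. The summed FPKM of 4 Y-linked genes was 0.02 to 0.16 in treated KO libraries and 45.18 to 99.6 in untreated KO libraries. In KO this level and Romiplostim therefore cannot be told apart, for Id1, Id2 and Tcf3 as for Id3. A term for it is estimated from the WT libraries, where untreated replicate 2 (0.55) and treated replicate 1 (0.09) were near 0. With this term the Id3 difference, KO minus WT, was −4.19 (adjusted p = 0.0567).

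Between the treated groups Id3 averaged 10.0 ± 8.92 FPKM in KO and 6.89 ± 0.416 FPKM in WT. Their difference was 0.13 ± 0.55 (adjusted p = 0.918), with an interval of −1.07 to 1.33, and it turned to −0.51 (adjusted p = 0.492) without the treated KO library of 19.9 FPKM. That library, replicate 2, also had the highest Id1, Id2 and marker levels of its group. In the order of the means, untreated WT, treated WT, treated KO and untreated KO, the step between the KO groups was the one among neighbours that passed.

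Id2 was the most abundant Id gene in untreated WT libraries and was higher in untreated KO libraries. Untreated KO libraries had 43.7, 50.4 and 61.8 FPKM, against 24.0, 18.1 and 15.3 FPKM in untreated WT libraries. The groups did not overlap, as those of 56.3% of tested genes did not. The KO mean was 2.72 times as high (log2 fold change 1.41 ± 0.39, adjusted p = 0.0118). Treated KO libraries ranged widely, with 14.4, 55.9 and 31.3 FPKM, and overlapped the untreated KO libraries. Their log2 difference of −0.78 ± 0.39 did not pass (adjusted p = 0.147), but it did without replicate 2 of the treated KO libraries (−1.23, adjusted p = 0.0167). In WT mice Id2 had 10.3, 19.9 and 15.5 FPKM in treated libraries, overlapping the untreated ones (−0.33 ± 0.39, adjusted p = 0.813, interval −1.18 to 0.52).

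Between the treated groups Id2 averaged 33.9 ± 20.9 FPKM in KO and 15.2 ± 4.85 FPKM in WT, where 1.37% of all genes passed and none of the 3 members tested did. The log2 difference for Id2 was 0.96 ± 0.39 (adjusted p = 0.204), and it passed without replicate 1 of the treated KO libraries (1.45, adjusted p = 0.0412). The Romiplostim effects on Id2 differed by −0.45 ± 0.55 (adjusted p = 0.611, interval −1.65 to 0.75). In the order treated WT, untreated WT, treated KO and untreated KO, no neighbouring groups differed by the test, although the ends of the order did (treated WT minus untreated KO −1.74 ± 0.39, adjusted p = 0.00419), in a comparison where 41.6% of genes passed, 21.8% downward.

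Id4 was near the limit of detection except in untreated KO libraries. Its fragment counts are estimates that rest on a gene length of 1660 bases, against 3849 bases of merged exons in the annotation. That length was picked because it brought the 12 values closest to whole fragments, within 0.029, so this closeness does not check it. The values then correspond to 3, 3 and 1 fragments in treated KO and 32, 57 and 100 in untreated KO libraries. In WT they correspond to 3, 0 and 0 fragments in treated and 16, 3 and 2 in untreated libraries. A count of 3 fragments corresponds to 0.0508 to 0.0652 FPKM, which is also what a count of 0 allows, counting error alone considered. Untreated KO libraries had 0.637, 1.068 and 2.102 FPKM, against 0.274, 0.062 and 0.041 FPKM in untreated WT libraries, without overlap. Treated KO libraries had 0.065, 0.051 and 0.019 FPKM, also below every untreated KO library. Of the 12823 genes tested in the main fit, 56.3% had groups without overlap between untreated KO and untreated WT. Between the KO groups 40.3% did. Id4 did not reach 1 FPKM in 3 libraries and was tested in a fit of 26521 genes without that filter. There the log2(FPKM + 1) difference of untreated KO from untreated WT was 0.97 ± 0.18 (adjusted p = 0.00359), where 25.7% of genes passed, 13.6% upward. That of treated from untreated KO was −1.07 ± 0.18 (adjusted p = 0.00445), where 14.7% passed, 10.5% downward, but it did not pass with a sex term (−1.05, adjusted p = 0.105) or with the compared groups alone (−1.07, adjusted p = 0.0587). These differences understate the change of so low a gene, because of the 1 FPKM added. The Romiplostim effect in WT was −0.14 ± 0.18 (adjusted p = 0.904), where 0.811% passed, and treated KO differed from treated WT by 0.04 ± 0.18 (adjusted p = 1), where 0.215% passed. The interaction was −0.93 ± 0.26 (adjusted p = 0.0642), where 5.98% passed.

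**Figure D2:**
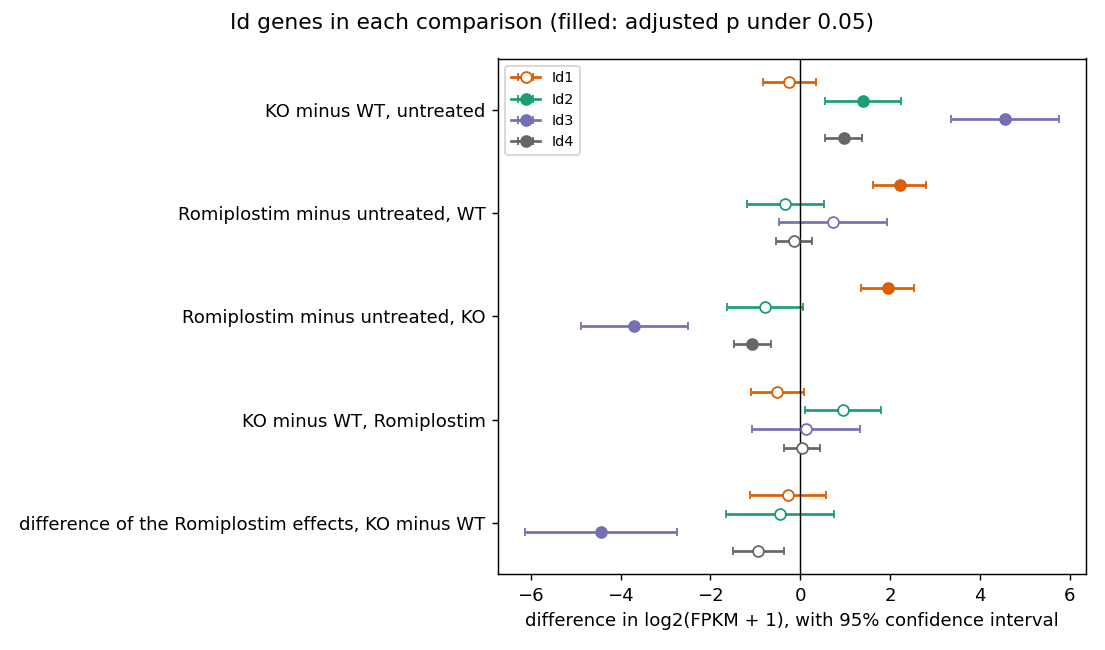
Differences in log2(FPKM + 1) of the 4 Id genes in 5 comparisons, with 95% confidence intervals from limma; filled points had an adjusted p under 0.05. Id1 is to the right of 0 under Romiplostim in both genotypes, while Id3 is at 4.56 for untreated KO minus WT and at −3.69 for Romiplostim in KO.

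The makeup of the Id family differed between the groups more than its sum did between some of them. The summed FPKM of the 4 genes was 31.5, 102 and 58.6 in treated KO libraries, 104, 222 and 212 in untreated KO, 39.1, 57.7 and 55.5 in treated WT and 37.1, 25.1 and 23.3 in untreated WT. Id3 made up 65.5% ± 10.2 of the sum in untreated KO, against 13.5% ± 5.72 in treated KO, 14.0% ± 2.96 in treated WT and 13.3% ± 2.54 in untreated WT (SD, n = 3 each). Id1 made up 35.1% ± 10.2 in treated KO, 2.58% ± 0.629 in untreated KO, 56.4% ± 2.40 in treated WT and 19.0% ± 2.47 in untreated WT. Id2 had the largest mean share in untreated WT, with 67.3% ± 3.91, and in treated KO, with 51.3% ± 4.89, although Id1 held 46.0% and Id2 45.7% in treated KO replicate 1. Id2 held 29.6% ± 4.44 in treated WT and 31.3% ± 9.77 in untreated KO. The Id1 level was 3.27 to 4.74 times the Id3 level in treated WT libraries and 0.025 to 0.0515 times that level in untreated KO libraries. These shares are descriptions, and no test was made on them.

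**Figure D3:**
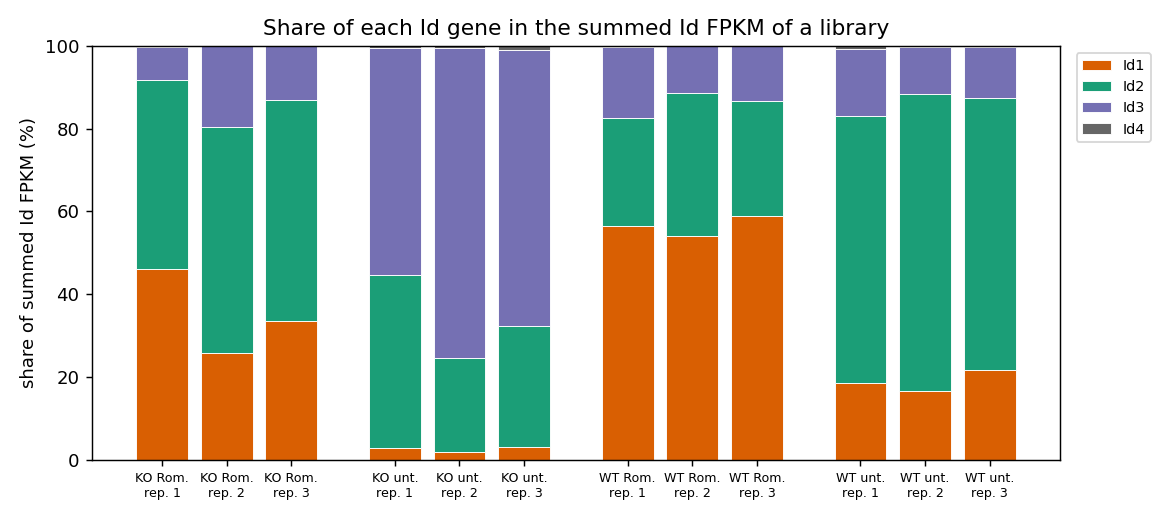
Share of each Id gene in the summed Id FPKM of each library, in percent, with 3 bars per group. Id3 takes 54.7% to 75.0% in untreated KO, Id1 takes 54.0% to 58.8% in treated WT, and Id2 takes 64.5% to 71.8% in untreated WT.

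Of the E protein genes, the partners that Id proteins hold, Tcf3 was raised in untreated KO, as Id3 was. Tcf3, which encodes the factors E12 and E47, had 66.7, 61.8 and 49.9 FPKM in treated KO libraries, 153, 181 and 113 in untreated KO, 52.8, 50.1 and 47.5 in treated WT and 49.5, 46.0 and 48.1 in untreated WT. The untreated KO libraries lay above all 9 others. The groups of 56.3% of tested genes did not overlap between untreated KO and untreated WT, and those of 40.3% between the KO groups. Tcf3 was higher in untreated KO than in untreated WT (log2 fold change 1.59 ± 0.16, adjusted p = 3e-05) and fell under Romiplostim in KO (−1.30 ± 0.16, adjusted p = 0.000266), with a difference of the Romiplostim effects of −1.36 ± 0.23 (adjusted p = 0.00455). In WT its Romiplostim effect was 0.06 ± 0.16 (adjusted p = 0.94). Tcf4 averaged 46.9 ± 9.23 FPKM in untreated KO and 36.7 ± 2.02 in untreated WT (0.33 ± 0.19, adjusted p = 0.185). Tcf12 averaged 22.2 ± 2.91 FPKM in untreated KO and 17.7 ± 3.32 in untreated WT (0.32 ± 0.15, adjusted p = 0.103). Neither passed for Romiplostim in KO, with −0.46 (adjusted p = 0.0939) for Tcf4 and −0.32 (adjusted p = 0.131) for Tcf12.

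The summed Id level was below the summed E protein level in 11 of 12 libraries. The ratio of the sums was 0.294, 0.834 and 0.559 in treated KO, 0.476, 0.849 and 1.21 in untreated KO, 0.360, 0.556 and 0.543 in treated WT and 0.377, 0.240 and 0.225 in untreated WT. Untreated KO libraries were above untreated WT libraries without overlap, and each treated group overlapped with both untreated groups. RNA levels per length were compared here, not protein.

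**Figure D4:**
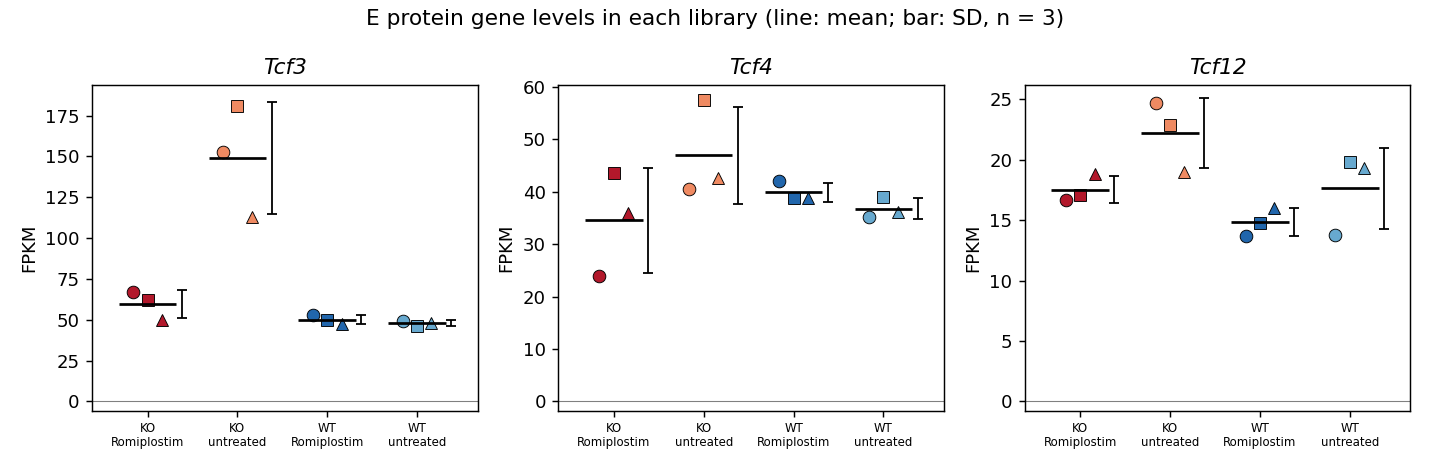
Level of Tcf3, Tcf4 and Tcf12 in each library, in FPKM on a linear axis, by group; circles, squares and triangles are replicates 1, 2 and 3, lines the mean and bars the SD of 3 libraries. Tcf3 reaches 113 to 181 FPKM in untreated KO, whereas Tcf4 lies at 23.9 to 57.5 FPKM and Tcf12 at 13.7 to 24.7 FPKM over all groups.

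The tested genes of a list of E protein partners and linked cofactors were lower in untreated KO than in untreated WT. The list held Tal1 and Lyl1, which pair with E proteins in blood cells, the scaffold genes Lmo2 and Ldb1, the corepressor gene Cbfa2t3 and Msc. Of the 6, 5 were tested, and all 5 fell in untreated KO against untreated WT, where 23% of all genes fell, with a median of −0.69 beside −0.03 over all tested genes. Lmo2 had 517 ± 93.3 FPKM in untreated KO and 1163 ± 76.2 FPKM in untreated WT (−1.18 ± 0.19, adjusted p = 0.000474). Lyl1 (−1.03), Tal1 (−0.62) and Ldb1 (−0.58) also fell, with adjusted p of 0.0166, 0.0204 and 0.0102. None of the 5 passed under Romiplostim in either genotype, except that Lmo2 fell in WT with the replicate block (−0.54, adjusted p = 0.0147). Stem cell markers, 10 of 12 tested, also fell in untreated KO (median −1.67). Fewer stem cells and less RNA per cell cannot be told apart in these bulk samples, and neither was tested.

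In the BMP and TGF-beta pathway, which feeds into Id genes, the genes that passed in untreated KO against untreated WT went in both directions. A pass was common there, with 45.1% of all genes, and nothing about the pathway is read from the counts. None of 4 ligand genes tested passed. Of 10 receptor genes tested, 2 rose and 5 fell, with a median of −0.39, where 22.1% of all genes rose and 23% fell. Acvrl1, the ALK1 receptor known from endothelial cells, had 9.27 ± 1.79 FPKM in untreated KO and 0.344 ± 0.106 FPKM in untreated WT (2.92 ± 0.19, adjusted p = 3.87e-06). Tgfbr2, the type II TGF-beta receptor, rose by 0.92 (adjusted p = 0.00433), whereas the type II BMP receptor gene Bmpr2 (−0.73, adjusted p = 0.00281) and the activin receptor gene Acvr1b (−0.62, adjusted p = 0.00509) fell. Of 5 Smad genes tested, 1 fell, Smad3 (−0.69, adjusted p = 0.0354). Of 7 feedback inhibitor genes tested, 4 fell, namely the decoy receptor gene Bambi (−0.78, adjusted p = 0.0191), the inhibitory Smad genes Smad6 (−0.73, adjusted p = 0.0197) and Smad7 (−0.53, adjusted p = 0.0443), and Ski (−0.57, adjusted p = 0.0458).

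Under Romiplostim, where Id1 rose, none of these pathway genes passed in WT, neither the 4 ligand, 10 receptor and 5 Smad genes nor the 7 feedback genes, where 1.84% of all genes passed. With the replicate block in WT, where 11.7% passed, the ligand gene Tgfb1 rose (0.74, adjusted p = 0.0169), and the ligand gene Bmp4 (−1.18, adjusted p = 0.0378) and Bambi (−0.55, adjusted p = 0.0292) fell. Without the block, Smad6 and Smad7, also targets of BMP signals, had log2 fold changes of 0.11 (adjusted p = 0.918) and 0.27 (adjusted p = 0.636) in WT. With it, their adjusted p was 0.515 and 0.125. In KO, the Romiplostim comparison gave falls of Acvrl1 (−2.60, adjusted p = 1.1e-05), Tgfbr2 (−1.32, adjusted p = 0.00114) and Smad2 (−0.52, adjusted p = 0.0159), and none of the 7 feedback genes passed, where 29.6% of all genes did. The effects of Romiplostim differed between genotypes for Acvrl1 (−2.86, adjusted p = 0.000399) and Tgfbr2 (−1.33, adjusted p = 0.0145), as for Id3.

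Of 13 genes of the thrombopoietin and STAT5 route tested, 6 fell in untreated KO against untreated WT, with a median of −1.09, and 0 rose, where 23% of all genes fell and 22.1% rose. Socs2, a feedback inhibitor of cytokine receptors, rose under Romiplostim in both genotypes as Id1 did. It had 195, 245 and 244 FPKM in treated WT and 106, 60.2 and 72.5 FPKM in untreated WT libraries (1.54 ± 0.31, adjusted p = 0.0258). In KO mice it had 86.5, 220 and 133 FPKM in treated and 8.29, 13.1 and 12.4 FPKM in untreated libraries (3.51 ± 0.31, adjusted p = 2.81e-05). Unlike Id1, Socs2 was lower in untreated KO than in untreated WT (−2.70 ± 0.31, adjusted p = 5.32e-05), and its Romiplostim effects differed (1.97 ± 0.43, adjusted p = 0.0128). Cish, another such inhibitor, had 20.5 ± 11.2 FPKM in treated KO, 3.78 ± 0.513 in untreated KO, 32.6 ± 6.25 in treated WT and 42.3 ± 14.9 in untreated WT. It rose under Romiplostim in KO (2.06, adjusted p = 0.000934) and did not pass in WT (−0.33, adjusted p = 0.764).

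Many markers of other cells, though not of all types, moved with Id3, and so with Id2 and Id4 in the untreated comparison. All 14 tested genes of an E protein linked B-lineage list rose in untreated KO against untreated WT (median 5.19), and all 14 fell under Romiplostim in KO (median −3.33), where 22.1% of all genes rose and 18.9% fell. The summed FPKM of this list of 15 was 106 to 725 in treated KO, 1952 to 4904 in untreated KO, 72.6 to 77.1 in treated WT and 93.3 to 105 in untreated WT. Pax5 was the one gene of the list at 0, in 5 libraries of which none was an untreated KO library. It averaged 7.52 FPKM in untreated KO, 0.035 in untreated WT and 0.381 in treated KO, and Rag2 averaged 18.8, 0.184 and 2.1. Such genes, in this list and in the other marker lists, reached the filter mainly through untreated KO. Their directions in these comparisons were therefore largely fixed by the filter. Macrophage markers, 9 of 9 tested, also rose in untreated KO and fell in treated KO. Their summed FPKM was 50 to 100 in treated KO, 847 to 2586 in untreated KO, 10.7 to 20.1 in treated WT and 40.4 to 60.8 in untreated WT, and none was at 0 in any library. Of 10 stromal and endothelial markers tested, 8 rose and 1 fell in untreated KO, and 7 fell in treated KO. Their summed FPKM was 33.5 to 105 in treated KO, 276 to 922 in untreated KO, 49.6 to 52.8 in treated WT and 50.2 to 85.3 in untreated WT, with Kitl or Col3a1 at 0 in the treated WT libraries. Of the remaining marker lists, 10 of 11 myeloid, 6 of 7 dendritic cell, 5 of 5 T cell, 6 of 6 mast cell and basophil and 6 of 11 erythroid genes tested rose in untreated KO, whereas of 6 megakaryocyte genes 0 rose and 1 fell. Under Romiplostim in KO, 8 of the 11 myeloid, 4 of the 7 dendritic cell, 4 of the 6 mast cell and basophil and 3 of the 11 erythroid genes fell, and of the 6 megakaryocyte genes 3 rose and 1 fell. Of the T cell genes 1 of 5 fell there (median −0.44), and 4 of 5 were higher in treated KO than in untreated WT (median 2.63). The T cell gene Cd8a was at 0 in all WT libraries and in no KO library. The part of these cells in the Id2, Id3, Id4 and Tcf3 differences was not tested.

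In WT, where Id1 rose under Romiplostim, none of the 14 B-lineage, 11 myeloid, 6 megakaryocyte or 10 stromal and endothelial genes tested passed, and 2 of 9 macrophage and 5 of 11 erythroid markers fell, beside 0.975% of all genes. With the replicate block in WT, where 11.7% of genes passed, more of them did. Of 8 B-lineage genes 3 fell, and of 5 macrophage genes 5 fell. Of 11 erythroid genes 6 fell and 2 rose, and of 10 myeloid genes 4 rose and 1 fell. Of 3 T cell genes 3 rose, of 6 megakaryocyte genes 3 and of 4 mast cell and basophil genes 2. The T cell genes Cd3g, Trbc1 and Cd3d averaged 4.21, 3.86 and 1.58 FPKM in treated and 0.297, 0.538 and 0.146 in untreated WT. Prss34, of the mast cell and basophil genes, averaged 2.55 and 0.0188. Such genes reached the filter of this fit mainly through treated libraries, so that their rise was largely fixed by the filter. Of 5 dendritic cell genes 1 rose and 1 fell, and of 12 stem cell markers 2 rose and 4 fell. Of 5 stromal and endothelial genes in that fit 1 rose and 2 fell. Of 8 natural killer and innate lymphoid markers tested, which are of interest beside Id2, 2 rose and 2 fell in untreated KO and 1 fell in each Romiplostim comparison, while with the replicate block in WT 1 of 6 rose and 2 fell. In untreated KO against untreated WT, Gzma (3.41 against 0.0868 FPKM, adjusted p = 0.000107) and Il2rb (4.67 against 0.0473, adjusted p = 0.00208) rose. Gata3 (17.2 against 40.9, adjusted p = 0.000836) and Tox (3.54 against 10.5, adjusted p = 0.000623) fell. The summed FPKM of the 12 listed markers was 27.8 to 80.1 in treated KO, 39.8 to 51.3 in untreated KO, 55.9 to 62.7 in treated WT and 62.0 to 76.1 in untreated WT. Gata3 was the largest part of this sum in both untreated groups. Ncr1, Eomes, Prf1, Tbx21 and Gzma were each at 0 in 1 or more of the WT libraries. Without the library with the highest marker level of each KO group, the log2 fold changes of untreated KO against untreated WT were 1.28 for Id2, 4.39 for Id3 and 0.72 for Id4, with adjusted p of 0.0123, 0.000134 and 0.00229. Those of Romiplostim in KO were then 1.99 for Id1 and −4.15 for Id3, with adjusted p of 0.000829 and 0.000662, and the Id3 interaction was −4.90 (adjusted p = 0.00215). The Id3 difference between treated KO and treated WT was −0.51 (adjusted p = 0.481) in this fit. The untreated KO libraries that remained had marker levels of 5.12 and 5.27, against 2.60 to 2.77 in untreated WT. The fit therefore leaves the marker difference in place and does not test the part of other cells.

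**Figure D5:**
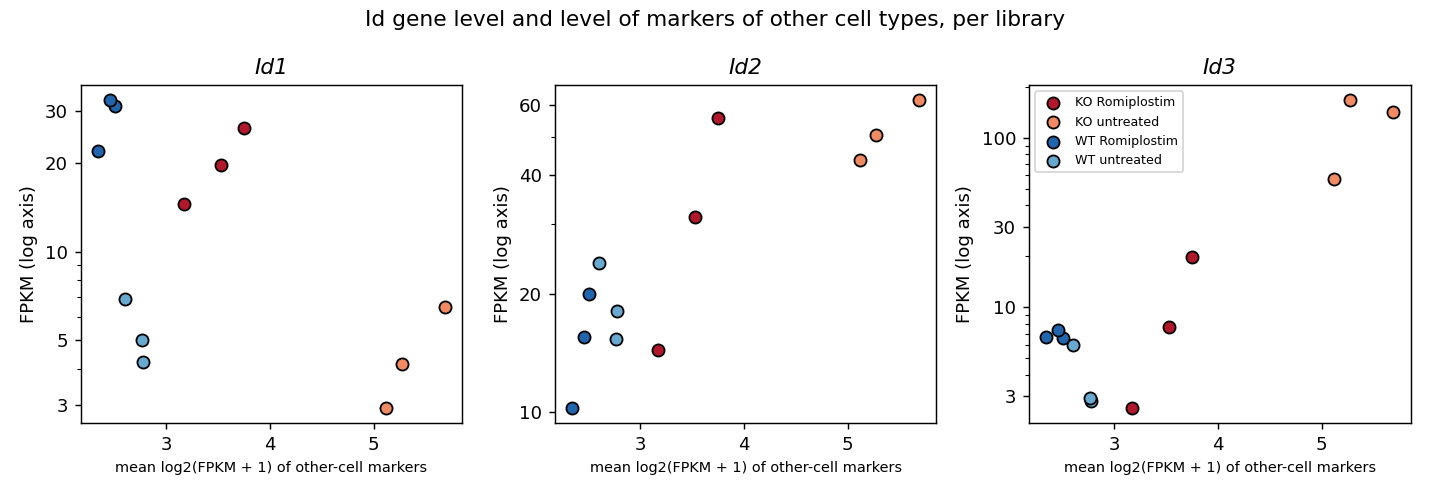
FPKM of Id1, Id2 and Id3 (log axis) against the mean log2(FPKM + 1) of 91 markers of other cell types, 1 point per library, coloured by group. Untreated KO libraries lie at marker levels of 5.12 to 5.69 with the highest Id3. In WT, Id1 is higher in treated libraries, at marker levels of 2.34 to 2.50, than in untreated ones, at 2.60 to 2.77, so both levels separate these groups.

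CDK inhibitor genes, whose products halt the cell cycle and some of which Id proteins are known to restrain, did not follow 1 direction. In untreated KO against untreated WT, Cdkn1c, a marker of resting stem cells, fell (−1.90 ± 0.29, adjusted p = 0.000313), Cdkn2c rose (0.78 ± 0.25, adjusted p = 0.0252), and the other 3 of the 5 tested did not pass, where 45.1% of all genes did. Under Romiplostim in KO, Cdkn2c (−1.5, adjusted p = 0.00151), Cdkn1a (−1.77, adjusted p = 0.0241) and Cdkn2d (−0.71, adjusted p = 0.0443) fell, where 29.6% of all genes passed. In WT, where 1.84% passed, none of the 5 did, but with the replicate block Cdkn1c fell (−0.72, adjusted p = 0.00978). The remaining 2 of the 7 listed, which include the Cdkn2a gene described as repressed through Id1, did not reach the level for testing.

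The genes whose pattern over the 12 libraries was most like that of each Id gene were found by the root mean square difference of log2(FPKM + 1), centred on each gene's mean, among 8368 coding genes with a mean of at least 5 FPKM. For Id1 these were Serpina3f (0.33), Ecm1 (0.45) and Ccdc102a (0.49), beside 1.10 for the spread of Id1 about its own mean. Serpina3f averaged 34.9 FPKM in treated KO, 10.8 in untreated KO, 53.1 in treated WT and 10.4 in untreated WT. Serpina3f belongs to the Serpina3 multigene family, and how reads shared between its members were counted is not stated. For Id2 they were Sdc1 (0.36), Evi2a (0.36) and Milr1 (0.40), beside a spread of 0.81. For Id3 they were Lgmn (0.45), a lysosomal protease gene, Spib (0.48), a transcription factor gene of B and dendritic cells, and Cyp4f18 (0.51), beside a spread of 1.89. Lgmn averaged 7.49 FPKM in treated KO, 94.7 in untreated KO, 4.27 in treated WT and 3.36 in untreated WT. In the same order Spib averaged 0.965, 23.4, 0.16 and 0.117 FPKM, and Cyp4f18 3.1, 40.6, 0.858 and 0.527. Spib and Cyp4f18 reached the mean of 5 FPKM through untreated KO, where Id3 was also high. The choice of candidates thus favoured this pattern.

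The promoters of Id2 and Id4 held a match to GGCGCC, a sequence known to be bound by BMP Smads, in the window of 250 bases before to 50 bases after the start (RefSeq, GRCm38.p6). The matches are shown in capitals within 30 bases each.
Id2, chr12:25096306-25096335, minus strand: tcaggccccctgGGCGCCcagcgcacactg
Id4, chr13:48260956-48260985, plus strand: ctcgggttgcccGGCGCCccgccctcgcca
The Id2 match begins at −231 and the Id4 match at −148 from the start, and Id3 had 0 matches. The start used is that of RefSeq. The Id2 stretch lies within the GENCODE span of the gene given above, 25093799 to 25097140, and so is not upstream of that span. Of 32851 promoters of this length, 11.9% hold GGCGCC. The STAT motif TTCNNNGAA, found in 8.3% of promoters, had 0 matches in Id2, Id3 and Id4. The E-box CANNTG, which E protein pairs bind and which 72.3% of promoters hold, had 1 match in Id2, at −196, and 0 in Id3 and Id4. This Id2 match also lies within the GENCODE span of the gene. All motifs read the same on both strands, and none of the matches overlapped. The Id1 promoter was not used here.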

How the data were processed

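RNA of sorted hematopoietic stem cells was amplified with a low-input kit and sequenced as paired reads of 150 bases, per the labels' protocols. The authors deposited 1 FPKM value per gene and library. The submitters' processing notes name mm10, TopHat2 and Cufflinks 2.2.1, without roles. Of 35275 gene identifiers, 34490 matched GENCODE M21. Depth was estimated from the steps of low values, of which 48.7% to 53.6% in a library were whole within 0.05 fragments. No count test was therefore run.

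FPKM values were taken as log2(FPKM + 1). Genes with at least 1 FPKM in at least 3 libraries, 12823 in all, were fitted as 4 group means over all 12 libraries with limma 3.58.1 (R 4.3.3) and an intensity trend. Tests were two-sided, with Benjamini-Hochberg adjustment per comparison over all tested genes, and Id4 was tested in a fit without the filter. An exact test of 3 against 3 libraries cannot go below a p of 0.1. The fit was tested on simulated data. Alternatives changed the pseudocount, filter, scaling, trend and libraries, blocked by replicate number, or dropped 1 library at a time. The deviations of same-numbered treated and untreated WT libraries from their group means correlated at 0.40, 0.12 and 0.38. For this reason the labels' replicate numbers were taken to pair these groups, although untreated replicate 2 and treated replicate 3 also correlated at 0.12. A fit of the WT libraries with this block, a sex covariate and a fit without 2 libraries high in other-cell markers were added after the data were seen. The members, gene lists and tests were chosen with earlier results of these data known. The text names the Id and E protein genes, Cish and Socs2, from each other list up to 4 members with the smallest p that passed, and the 3 genes nearest in pattern to Id1, Id2 and Id3. The Smad6 and Smad7 values under Romiplostim in WT, Cdkn2a, the genes named from the WT block and the markers at 0 were picked after their values were seen. A gene that this rule also names is not reported here, although it stayed in every fit and count.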

Additional observations from a re-analysis of the deposited data

Results flagged for a closer look

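The Romiplostim effect on Id3 differed between the genotypes. In KO the log2 fold change, treated minus untreated, was −3.69 ± 0.55, and in WT it was 0.74 ± 0.55. The difference, KO minus WT, was −4.44 (adjusted p = 0.00505, limma), and with a sex covariate it was −4.19 and did not pass (adjusted p = 0.0567). All 3 treated KO libraries lay below all 3 untreated KO libraries, whereas all 3 treated WT libraries lay above all 3 untreated WT libraries. The groups of 40.3% of all tested genes did not overlap in KO, and those of 26.8% in WT. Groups of 3 libraries are too small for a search for single libraries far from the others.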

How the results depend on the processing

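Of 602 values of the 4 Id genes recomputed under alternatives, 589 kept their direction and their side of the criterion, 6 passed where they had not, 3 no longer passed and 4 reversed. The cause of these changes was not tested. Id1 passed for Romiplostim in both genotypes under every alternative run, with log2 fold changes of 2.08 to 2.40 in WT and 1.73 to 2.41 in KO. With a sex covariate the Id1 interaction reversed to 0.19, the Id3 interaction was −4.19 (adjusted p = 0.0567) and Id4 for Romiplostim in KO was −1.05 (adjusted p = 0.105). A fit of the compared groups alone gave −1.07 (adjusted p = 0.0587) for the last. Without the 2 libraries highest in other-cell markers, Id2 for Romiplostim in KO passed at −1.10 (adjusted p = 0.0445), Id3 between treated KO and treated WT reversed to −0.51 and the Id4 interaction passed at −0.68 (adjusted p = 0.0298). Leaving out 1 library at a time, Id2 ranged from −1.23 to −0.29 for Romiplostim in KO, from 0.51 to 1.45 for treated KO minus treated WT and from −0.90 to 0.04 for the interaction, which reversed without replicate 1 of the treated KO libraries. Id3 for treated KO minus treated WT ranged from −0.51 to 0.77, and the Id4 interaction from −1.14 to −0.68, passing without replicate 1 (adjusted p = 0.0166) or 3 (adjusted p = 0.0211) of untreated KO.

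Counts of changed genes moved more. For treated KO minus treated WT, 176 genes became 326 with a pseudocount of 0.1, 57 with no filter, 270 with quantile normalization, 28 with a sex covariate, 68 with the compared groups alone, 1755 without the 2 libraries and 30 to 1565 without 1 library. For Romiplostim in WT, 236 became 122 with a filter of 5 FPKM, 434 without the 2 libraries, 611 with the compared groups alone, 1396 with the replicate block in the WT libraries alone and 62 to 467 without 1 library. For treated KO minus untreated WT, 1340 became 883 with a filter of 5 FPKM, 3106 without the 2 libraries, 216 with a sex covariate, 427 with the compared groups alone and 641 to 2850 without 1 library. For Romiplostim in KO, 3797 became 770 with a sex covariate, 2027 with the compared groups alone and 2214 to 4305 without 1 library. For the interaction, 1996 became 261 with a sex covariate and 1093 to 2687 without 1 library. The share of upward calls was 35.5% for the interaction, 28.1% for treated KO minus untreated WT and 47.6% for treated WT minus untreated KO. With median-of-ratios scaling it was 40.6%, 45.9% and 46.9% in that order, and with quantile normalization 55.5%, 37.5% and 58.8%.

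Replicate numbers were not found to pair libraries across all groups, since 6 of 18 same-numbered pairs had a correlation over 0.1. With the replicate block over all groups, no call of an Id gene changed; Id3 for untreated KO minus untreated WT stayed at 4.56 (adjusted p = 0.000162) and 199 genes passed for Romiplostim in WT. With the block in the WT libraries alone no call of an Id gene changed either, with Id1 at 2.22 (adjusted p = 0.00313) and Id3 at 0.74 (adjusted p = 0.059). Depth limits Id4 outside untreated KO, where libraries held an estimated 16 fragments of it at most.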
